A study of Mus musculus with 6 samples.

Results

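The GADD45 genes Gadd45a, Gadd45b and Gadd45g, the sestrin genes Sesn1, Sesn2 and Sesn3, and Cited2, Txnip and Bcl6 were followed in mouse ovarian granulosa cells labelled as a double knockout (dKO) of Foxo1 and Foxo3, and in wild-type cells. These 9 genes act in growth arrest and stress responses and have been reported as FOXO targets. They were taken by gene symbol, as every probe set that the platform annotation assigns to 1 of these symbols alone, which gave 19 of the 45037 probe sets on the array and 9 of 18193 named genes. Total RNA was measured on 6 Affymetrix arrays, 2 in each of 3 groups. The dKO 2-month and dKO day 25 groups were granulosa cells of the genotype Foxo1 f/-;Foxo3 f/-; Amhr2-cre, at 2 months and at day 25 of age, and the wild-type group was at day 25. The Cre recombinase of the dKO is driven from Amhr2, a gene of granulosa cells, which directs the deletion of floxed alleles to cells that express it. All mice were of a mixed FVB and C57BL/6 background. The labels do not say whether wild-type mice carried floxed alleles, wild-type cells at 2 months were not analysed here, and how the cells were isolated is not given in the sources used here.

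FOXO factors bind DNA and switch on genes when insulin and growth factor signalling is low. When PI3K and AKT are active they are phosphorylated and leave the nucleus, and in granulosa cells this signalling is raised by FSH and IGF1 as follicles grow. The products of the genes followed here include GADD45 proteins, which bind PCNA, CDK1 and the kinase MAP3K4, and sestrins, which restrain the growth kinase complex mTORC1. CITED2 binds the coactivators CBP and p300, TXNIP binds thioredoxin and limits glucose uptake, and BCL6 is a zinc finger repressor best known in B cells of the germinal centre.

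Intensities had a median of 73 or 74 on every array. Foxo1, 1 of the targeted genes, had 126 and 343 on the dKO arrays at 2 months and 904 and 2291 on those at day 25, against 10319 and 7666 on the wild-type arrays. Foxo3 was not lower, with 2484 and 1872 at 2 months and 2539 and 3279 at day 25 in the dKO, against 1632 and 1342 in wild type. The exons deleted are not named in the labels, so whether its probe set lies in a deleted part is not known. The granulosa markers Amhr2, Inha, Foxl2 and 10 others were present at a median level that stayed within -0.03 and 0.19 of the mean of the arrays on the log2 scale. dKO 2-month replicate 1 stood apart: its correlation with the other arrays was at most 0.978 over all probe sets, and 1475 genes differed by over 2-fold between it and replicate 2 of its group, against 345 between the dKO arrays at day 25 and 426 between the wild-type arrays. On that array leukocyte and endothelial markers were highest and oocyte markers lowest. In such bulk samples, fewer cells of a type and less RNA per cell cannot be told apart.

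The promoters of 4 of the genes are given as examples of patterns in their intensities. Gadd45a and Sesn1 were low in the dKO at both ages, Cited2 was low at day 25, and Txnip was high at 2 months. Gadd45g was also high at 2 months, and its promoter and the other window of Sesn1 are not printed. Each sequence is 300 bases from RefSeq on GRCm38.p6, 250 before the annotated start of the gene and 50 after it, written in the direction of the gene. Capitals mark every match to GTAAACA, the core of the FOXO binding site, or to CACGTG, an E-box, with both strands searched, and the motifs do not overlap here.
Gadd45a, chr6:67037358-67037657, minus strand: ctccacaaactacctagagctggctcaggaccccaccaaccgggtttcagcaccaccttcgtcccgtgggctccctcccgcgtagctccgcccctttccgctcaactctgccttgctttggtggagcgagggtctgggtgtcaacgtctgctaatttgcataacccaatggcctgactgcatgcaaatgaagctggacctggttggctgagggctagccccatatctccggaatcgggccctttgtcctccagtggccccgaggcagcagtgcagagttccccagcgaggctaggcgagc
Sesn1, chr10:41810324-41810623, plus strand: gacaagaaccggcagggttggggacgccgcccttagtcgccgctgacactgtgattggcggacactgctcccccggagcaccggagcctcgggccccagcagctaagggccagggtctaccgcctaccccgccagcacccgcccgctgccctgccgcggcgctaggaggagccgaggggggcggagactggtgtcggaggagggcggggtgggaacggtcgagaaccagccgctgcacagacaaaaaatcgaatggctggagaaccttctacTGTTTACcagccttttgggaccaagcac
Cited2, chr10:17722978-17723277, plus strand: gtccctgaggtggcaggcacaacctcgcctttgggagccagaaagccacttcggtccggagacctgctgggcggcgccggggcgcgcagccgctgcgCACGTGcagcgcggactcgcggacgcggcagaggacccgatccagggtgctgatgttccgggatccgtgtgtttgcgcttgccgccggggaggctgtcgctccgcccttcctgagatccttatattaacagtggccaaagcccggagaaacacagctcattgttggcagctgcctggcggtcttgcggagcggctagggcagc
Txnip, chr3:96557707-96558006, plus strand: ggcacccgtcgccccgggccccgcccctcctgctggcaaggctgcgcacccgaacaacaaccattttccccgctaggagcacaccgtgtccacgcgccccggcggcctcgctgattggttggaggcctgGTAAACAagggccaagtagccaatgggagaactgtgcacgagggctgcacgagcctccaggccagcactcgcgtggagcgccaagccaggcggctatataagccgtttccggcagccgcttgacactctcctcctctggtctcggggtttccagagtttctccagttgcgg
GTAAACA was found in 2 of the 11 start windows of the 9 genes, both among those printed, against 3.65% of all 32851 windows. In Txnip it begins 121 bases upstream of the start. In Sesn1 it lies on the other strand, read as TGTTTAC, and begins at base 23 after the start, in the window of the upstream of its 2 annotated starts. CACGTG was found in 4 of the 11, in Cited2, Gadd45b, Gadd45g and 1 window of Bcl6, against 7.15% of all windows. These letters describe the windows alone, and a FOXO site elsewhere in a gene would not be seen.

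At day 25 the genotypes can be compared at 1 age. Gadd45a, Sesn1, Cited2, Sesn3 and Bcl6 were lower on both dKO arrays than on both wild-type arrays, by between 1.61-fold and 2.11-fold in the mean. Gadd45b, Gadd45g, Txnip and Sesn2 showed differences within 0.39 on the log2 scale. No gene passed after adjustment over all 45037 probe sets by limma: the smallest adjusted p of any probe set was 0.367, and 3668 probe sets had an unadjusted p under 0.05. At an unadjusted p under 0.05 there were 4 of the 9 genes with lower and 0 with higher values, where 3.44% of all genes were lower and 4.89% higher. Groups did not overlap for 5 genes that were lower and 1 that was higher, where 19.5% of all genes were lower and 26.4% higher without overlap. The count of 4 became 2 without either wild-type array or without dKO day 25 replicate 2, and 1 without dKO day 25 replicate 1. The median log2 difference of the 9 genes was -0.69, against 0.03 over all genes. With 2 arrays a group, the smallest p of an exact two-sided permutation test is 0.333.

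**Figure D1:**
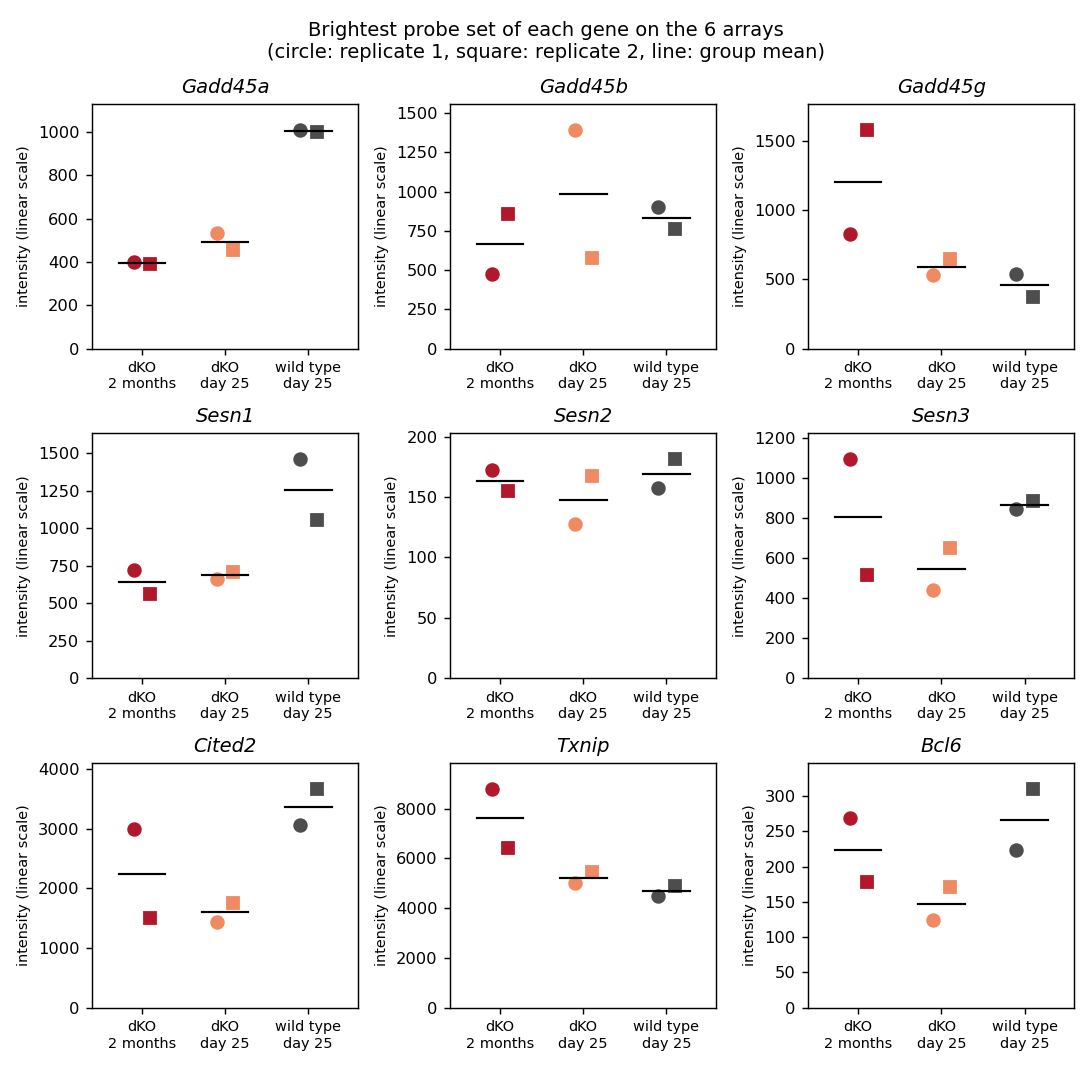
Intensity on a linear scale (vertical axes, each starting at 0) of the brightest probe set of each of the 9 genes, for the 6 arrays in 3 groups of 2, with circles for replicate 1, squares for replicate 2 and lines for group means. Gadd45a lies between 391 and 532 on the 4 dKO arrays and at 1009 and 998 on the wild-type arrays, while Gadd45g is highest on the dKO arrays at 2 months.

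Gadd45a gave the clearest separation of the 9 genes. It lies at chr6:67035096-67037407 in GRCm38.p6, is induced by p53 and by other signals of DNA damage, and its protein slows the passage from G2 into mitosis. Its 1 probe set read 400 and 391 on the dKO arrays at 2 months and 532 and 455 on those at day 25, against 1009 and 998 on the wild-type arrays. Both wild-type arrays were above all 4 dKO arrays, with replicates close together in each group. The day 25 mean of the dKO was 493.5 ± 54.4, against 1003.5 ± 7.78 for wild type (SD, n = 2 each), a log2 difference of -1.03 ± 0.11 (SE), adjusted p = 0.381. Its p ranked 37 of the 45037 probe sets. At 2 months the mean was 395.5 ± 6.36, a log2 difference from wild type of -1.34 ± 0.11 (SE), adjusted p = 0.123 and rank 32. Between the dKO ages the groups did not overlap either, with a log2 difference of -0.31 ± 0.11 (SE), adjusted p = 0.712, but -0.20 without dKO day 25 replicate 1. Without any 1 array the day 25 difference stayed between -1.14 and -0.91, and the 2-month difference from wild type between -1.36 and -1.32.

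Gadd45b, an early response gene that activates stress kinases through MAP3K4, had no such pattern. Its brightest probe set read 475 and 855 on the dKO arrays at 2 months and 1393 and 575 on those at day 25, against 902 and 762 on the wild-type arrays. Each dKO group overlapped wild type, and the dKO arrays at day 25 differed 2.42-fold. The genotypes differed by 0.11 ± 0.51 (SE) on the log2 scale at day 25, adjusted p = 0.972, and by -0.53 without dKO day 25 replicate 1. The second probe set, with 913 on the dKO day 25 replicate 1 array against 355 on replicate 2, ran the same way, and the dimmest read between 56 and 68 throughout.

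Gadd45g, the family member best known as a brake on proliferation that stress and differentiation induce, ran opposite to Gadd45a. Its 1 probe set read 829 and 1581 on the dKO arrays at 2 months and 531 and 648 on those at day 25, against 536 and 376 on the wild-type arrays. Both 2-month arrays lay above all day 25 arrays of either genotype, and at day 25 the genotypes overlapped. Set against wild type, its log2 difference at day 25 was 0.39 ± 0.36 (SE) with adjusted p = 0.808, and at 2 months 1.35 ± 0.36 with adjusted p = 0.303. At day 25 it was 0.13 without wild-type replicate 2, 0.24 without dKO day 25 replicate 2 and 0.64 without wild-type replicate 1. Between the dKO ages it was 0.96 ± 0.36 (SE), adjusted p = 0.712, with 1.43 when 2-month replicate 1 was left out and 0.50 when replicate 2 was. Replicate 2 of the 2-month group was 1.91-fold above replicate 1, the array of the pair with the higher leukocyte markers. The part of cell content in the Gadd45g values was not tested. Without replicate 2 the 2-month difference from wild type was 0.88, and without replicate 1 it was 1.81.

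Immediate early genes, which include stress- and handling-induced factors of the FOS, JUN and EGR families, were higher on the same 2-month arrays as Gadd45g. Their intensities summed over 20 genes were 26739 and 26844 on the dKO arrays at 2 months and 17192 and 12447 at day 25, against 14340 and 17535 in wild type. Between dKO at 2 months and wild type, 10 of the 20 were higher at an unadjusted p under 0.05 and 1 was lower. Over all genes, 9.54% were higher and 5.38% lower. Junb, for example, read 243 and 253 on the dKO arrays at 2 months and 90 and 79 at day 25, against 79 and 109 in wild type. At day 25 the median of the 20 was -0.13, and 3 had an unadjusted p under 0.05, 2 of them lower and 1 higher. Of all genes, 3.44% were lower and 4.89% higher at that level at day 25. Gadd45b did not share the 2-month pattern. The part of this shift in the Gadd45g values was not tested.

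The sestrins differed from each other. Sesn1, a p53-induced sestrin at chr10:41810574-41908436, has 4 probe sets, and the brightest read 719 and 559 on the dKO arrays at 2 months and 664 and 711 on those at day 25, against 1459 and 1057 on the wild-type arrays. As for Gadd45a, all 4 dKO arrays lay below both wild-type arrays. The log2 difference at day 25 was -0.85 ± 0.21 (SE) with adjusted p = 0.508, and at 2 months -0.97 ± 0.21 with adjusted p = 0.257, while the dKO ages differed by -0.12 ± 0.21. The next 2 probe sets of Sesn1 had log2 differences of -0.81 and -0.98 at day 25 and of -0.72 and -0.98 at 2 months. The dimmest probe set of Sesn1 read 51 and 35 in dKO at 2 months and 45 and 40 at day 25, against 50 and 47 in wild type.

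Sesn3, the sestrin most often described as a direct FOXO target, was lower in the dKO at day 25 and uneven at 2 months. Its brightest probe set read 1094 and 514 on the dKO arrays at 2 months and 442 and 651 on those at day 25, against 844 and 887 on the wild-type arrays. Replicate 1 at 2 months was the highest of all 6 arrays and replicate 2 of that group the second lowest. The genotypes differed by -0.69 ± 0.40 (SE) on the log2 scale at day 25, adjusted p = 0.694, and by -0.41 without dKO day 25 replicate 1 and -0.97 without replicate 2. The dimmer probe set gave -0.72 ± 0.23 (SE), adjusted p = 0.564. The difference at 2 months from wild type was -0.21 ± 0.40 (SE), adjusted p = 0.842, but -0.75 ± 0.28 when replicate 1 was left out and -0.38 as the mean of both probe sets. The dimmer probe set did not share the high value, with 171 and 152 in dKO at 2 months and 115 and 178 at day 25, against 248 and 226 in wild type.

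Sesn2, the sestrin induced by the integrated stress response and a leucine sensor, showed the narrowest range of the family. Its brightest probe set read 172 and 155 on the dKO arrays at 2 months and 128 and 167 on those at day 25, against 157 and 181 on the wild-type arrays. The groups overlapped in all 3 comparisons. The genotypes differed by -0.20 ± 0.17 (SE) on the log2 scale at day 25, adjusted p = 0.78, and the dimmer probe set, at 69 and 79 in dKO against 95 and 108 in wild type, gave -0.45 ± 0.19, adjusted p = 0.634. With 1 array left out, the day 25 difference of the brightest ranged from -0.39, without dKO replicate 2, to -0.013, without dKO replicate 1, and it was -0.31 and -0.10 without wild-type replicates 1 and 2. Averaged over both probe sets it was -0.33.

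**Figure D2:**
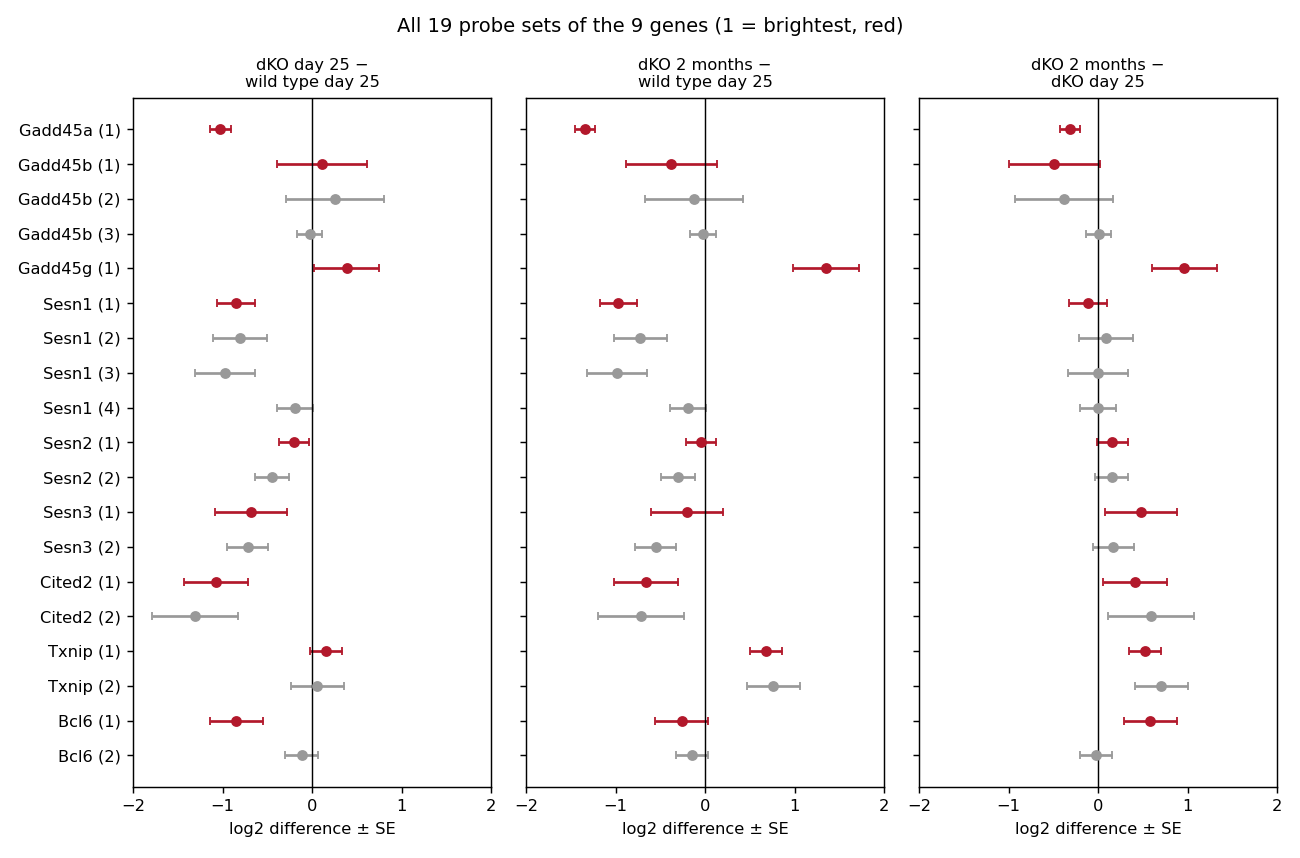
Log2 difference with its standard error (horizontal axes) for all 19 probe sets, numbered from the brightest of each gene, with the brightest in red, in the comparisons of dKO at day 25 with wild type, dKO at 2 months with wild type, and dKO at 2 months with dKO at day 25. Against wild type, 14 of the 19 probe sets lie below 0 for dKO at day 25 and 16 for dKO at 2 months. Gadd45a and the 3 brighter Sesn1 probe sets are among them in both comparisons. Of all probe sets, 50% had a lower mean at day 25 and 46% at 2 months. The 19 include repeats of the same gene and dim probe sets with differences near 0. Gadd45g and both Txnip probe sets lie above 0 in the comparison of dKO at 2 months with wild type.

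Cited2 and Bcl6, which encode nuclear proteins that limit the activity of other factors, were low at day 25 with Sesn3 and shared its uneven 2-month values. Cited2, at chr10:17723228-17725674, read 2995 and 1497 on the dKO arrays at 2 months and 1435 and 1760 on those at day 25, against 3059 and 3662 on the wild-type arrays. Replicate 1 at 2 months thus came close to the lower wild-type array, while replicate 2 lay at the level of dKO at day 25. The day 25 mean of the dKO was 1597.5 ± 230, against 3360.5 ± 426 for wild type (SD, n = 2 each), a log2 difference of -1.07 ± 0.36 (SE), adjusted p = 0.574. The other Cited2 probe set gave -1.31 ± 0.48 at day 25, adjusted p = 0.6. The 2-month arrays enter that comparison through the pooled spread alone, and without either of them the SE of the day 25 difference was 0.16 and the adjusted p 0.322.

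Bcl6 at chr16:23965050-23988866 had 269 and 178 on the dKO arrays at 2 months and 124 and 171 on those at day 25, against 223 and 310 on the wild-type arrays. At day 25 the dKO arrays lay below both wild-type arrays, a log2 difference of -0.85 ± 0.30 (SE), adjusted p = 0.587. At 2 months the groups overlapped, with -0.26 ± 0.30 (SE), adjusted p = 0.718. The dimmer Bcl6 probe set read between 28 and 38 throughout. The mean of both probe sets gave -0.48 at day 25. Bcl6 is also a B-cell gene. Of 15 leukocyte markers measured, 14 were higher in the mean in dKO than in wild-type cells at day 25 (median log2 difference 1.01). At 2 months 15 were (median 1.87). At an unadjusted p under 0.05, 0 of the 15 were higher at day 25 and 10 at 2 months, against 4.89% and 9.54% of all genes. Over all genes, 43.8% had lower means at day 25 and 44% at 2 months. The part of leukocytes in the Bcl6 values was not tested.

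Txnip, which binds thioredoxin and is switched on by glucose through MondoA, was the only gene besides Gadd45g among the 9 with a higher brightest-probe-set mean in the dKO at 2 months than in wild type. At chr3:96557957-96561857, it read 8783 and 6433 on the dKO arrays at 2 months and 5017 and 5438 on those at day 25, against 4496 and 4907 on the wild-type arrays. The 2-month arrays lay above all others, and at day 25 the groups did not overlap but were close. Set against wild type, its log2 difference at day 25 was 0.15 ± 0.18 (SE) with adjusted p = 0.847, and at 2 months 0.68 ± 0.18 with adjusted p = 0.295. Between the dKO ages it was 0.53 ± 0.18 (SE), adjusted p = 0.712. Without replicate 1 of the 2-month group, which had the higher value, the difference from wild type was 0.45 and that between the dKO ages 0.30. At day 25 it was 0.090 without wild-type replicate 1 and 0.095 without dKO replicate 2. The dimmer Txnip probe set read 928 and 555 in dKO at 2 months and 410 and 472 at day 25, against 365 and 490 in wild type, with a log2 difference from wild type of 0.76 ± 0.30 at 2 months.

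The comparison of dKO at 2 months with wild type at day 25 changes genotype and age together, which cannot be told apart. Gadd45a and Sesn1 were lower and Gadd45g and Txnip higher, each without overlap and at an unadjusted p under 0.05. Cited2 was also lower without overlap, with a log2 difference of -0.66 ± 0.36 (SE), adjusted p = 0.475, but -1.16 without dKO 2-month replicate 1 and -0.16 without replicate 2. Over all probe sets 0 passed after adjustment in limma, with a smallest adjusted p of 0.114, and 5900 had an unadjusted p under 0.05. Among all genes, 5.38% were lower and 9.54% higher at that level, and 17.3% were lower and 26.6% higher without overlap. This comparison shares its wild-type arrays with the one at day 25, so the 2 are not separate evidence. The median of the 9 genes was -0.26, against 0.04 over all genes, and it was -0.56 without dKO 2-month replicate 1 and 0.03 without replicate 2.

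Within the dKO, the older cells can be set against the younger. Gadd45g and Txnip were higher and Gadd45a lower without overlap at an unadjusted p under 0.05, where 3.73% of all genes were higher and 2.91% lower. Bcl6 was higher without overlap, with a log2 difference of 0.58 ± 0.30 (SE), adjusted p = 0.712, and without overlap 19.7% of all genes were higher and 17% lower. That of Bcl6 was 0.29 without dKO 2-month replicate 1, 0.35 without dKO day 25 replicate 1, 0.88 without dKO 2-month replicate 2 and 0.28 as the mean of its probe sets. No probe set passed after adjustment in limma, the smallest adjusted p was 0.712, and 2514 had an unadjusted p under 0.05. The 3 genes at that level became 0 without either wild-type array or dKO day 25 replicate 1, and 1 without dKO day 25 replicate 2 or dKO 2-month replicate 1. The median of the 9 genes was 0.41, against 0.02 over all genes, and it was -0.06 without dKO 2-month replicate 1.

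Much of the 2-month spread lay between its 2 arrays. Replicate 1 was above replicate 2 for Sesn3 by 2.13-fold, for Cited2 by 2.00-fold, for Bcl6 by 1.51-fold and for Txnip by 1.37-fold. It was also above for Sesn1 by 1.29-fold and for Sesn2 by 1.11-fold, and below for Gadd45b and Gadd45g. For Gadd45a the 2 arrays differed 1.02-fold. Leukocyte markers summed over 15 genes to 19230 and 6127 in dKO at 2 months and 9657 and 5462 at day 25, against 2063 and 3817 in wild type. Endothelial markers summed over 12 genes to 4113 and 2126 in dKO at 2 months and 1371 and 2016 at day 25, against 1094 and 1331. Oocyte markers summed over 15 genes to 8224 and 44732 in dKO at 2 months and 55400 and 80695 at day 25, against 38620 and 23546. The markers of leukocytes and endothelium were thus highest, and those of oocytes lowest, on the array where Sesn3, Cited2, Bcl6 and Txnip exceeded their values on its partner. Their part in these values was not tested. At day 25, 14 of 15 leukocyte, 12 of 12 endothelial and 15 of 15 oocyte markers had higher means in the dKO. At an unadjusted p under 0.05 there, 0 leukocyte, 4 endothelial and 0 oocyte markers were higher, against 4.89% of all genes. The part of cell content in the values of the 5 genes that were lower there was not tested. Higher means in the dKO at day 25 were also found for 14 of 14 markers of stroma and smooth muscle and 10 of 13 of granulosa cells. For the surface epithelium it was 5 of 8, for theca cells 3 of 6 and for erythrocytes 2 of 3. Over all genes 43.8% had a lower mean there, so the epithelial, theca and erythrocyte counts lie near the share of all genes.

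**Figure D3:**
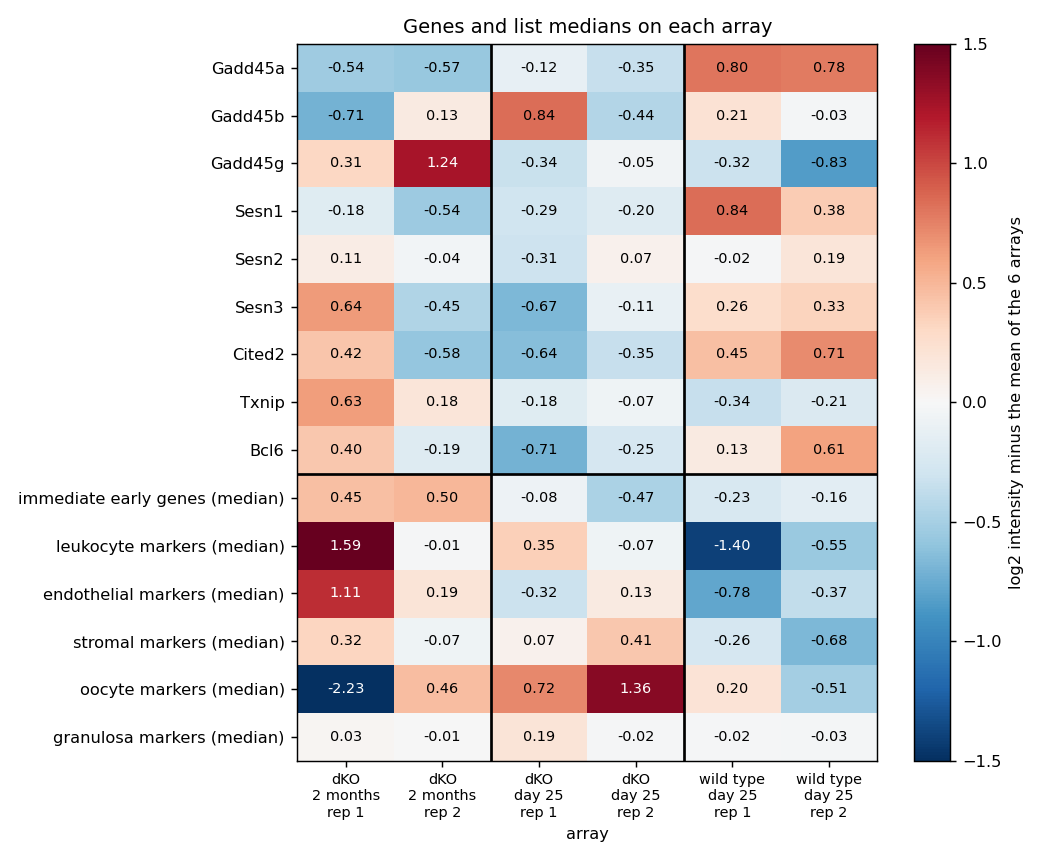
Log2 intensity minus the mean of the 6 arrays, by array (columns), for the 9 genes and, below the line, for the median of 6 gene lists (rows), with the colour scale ending at 1.5 in either direction and each value printed. dKO 2-month replicate 1 has the highest leukocyte (1.59) and endothelial (1.11) medians and the lowest oocyte median (-2.23). It lies above replicate 2 in Sesn3, Cited2 and Bcl6, and below it in Gadd45b and Gadd45g.

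The lists of genes around the 9 had medians between -0.16 and 0.04 at day 25, on the log2 scale, and 0 of their genes passed after adjustment. Partners of GADD45 proteins and G2 checkpoint genes had a median log2 difference of -0.16 over 11 measured genes, with 0 genes at an unadjusted p under 0.05. Map3k4, the kinase that GADD45 proteins activate, read 1021 and 1326 in dKO at 2 months and 1565 and 1538 at day 25, against 2043 and 1895 in wild type, so its groups did not overlap in any comparison. Its log2 difference from wild type was -0.34 ± 0.15 (SE) in the younger dKO cells, adjusted p = 0.646, and -0.76 ± 0.15 in the older, adjusted p = 0.238. Cdkn1a, the p21 inhibitor that GADD45 proteins bind, read 245 and 314 in dKO at 2 months and 231 and 319 at day 25, against 220 and 431 in wild type, with overlap throughout.

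Genes that act with sestrins, the GATOR complexes and AMPK had a median of -0.04 over 26 genes at day 25. At an unadjusted p under 0.05, 3 of these were higher and 0 lower, where 4.89% of all genes were higher and 3.44% lower. Prkaa2, the catalytic AMPK subunit alpha 2, read 249 and 197 in dKO at 2 months and 213 and 188 at day 25, against 91 and 136 in wild type. The p53 target list, which contains Gadd45a, Sesn1 and Sesn2, had a median of -0.04 over 24 genes, and Gadd45a and Sesn1 were its only 2 genes lower at an unadjusted p under 0.05. The integrated and ER stress list, which contains Sesn2, had a median of 0.01 over 18 genes, with 1 lower and 0 higher at that level. That lower gene was Cebpb, a transcription factor of ovulating granulosa cells, at 2670 and 2464 in dKO at 2 months and 1133 and 2012 at day 25, against 2748 and 2632 in wild type. Atf4, the central factor of that response, read 2313 and 2672 in dKO at 2 months and 2540 and 2981 at day 25, against 2259 and 2687 in wild type, again with overlap.

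Around CITED2, the p300 and HIF1 list had a median of 0.04 over 20 genes at day 25. At an unadjusted p under 0.05, 3 of these were higher and 0 lower, where 4.89% of all genes were higher and 3.44% lower. Slc2a1, the glucose transporter GLUT1 and a HIF1 target, read 1643 and 1555 in dKO at 2 months and 1721 and 1522 at day 25, against 1140 and 1293 in wild type. Hif1a, whose product competes with CITED2 for p300, read 7105 and 9891 at 2 months and 9566 and 7975 at day 25 in dKO, against 6232 and 6287. Both dKO groups lay above wild type without overlap, with a log2 difference of 0.48 at day 25, adjusted p = 0.625. Adm, the hypoxia-induced peptide adrenomedullin, read 247 and 148 at 2 months and 95 and 101 at day 25, against 72 and 54.

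In the thioredoxin and MondoA list, with a median of -0.03 over 15 genes at day 25, Arrdc3 ran opposite to Txnip. Arrdc3 encodes an arrestin-like protein of the same family, and read 677 and 1700 in dKO at 2 months and 1706 and 1768 at day 25, against 3199 and 3109 in wild type. All 4 dKO arrays lay below both wild-type arrays, with log2 differences of -0.86 ± 0.44 (SE) with adjusted p = 0.665 at day 25, and -1.55 ± 0.44 with adjusted p = 0.312 at 2 months. Arrdc4, the relative that MondoA induces with Txnip, read 608 and 437 in dKO at 2 months and 321 and 486 at day 25, against 286 and 463, with overlap in each comparison. Txn1, thioredoxin itself, read 6183 and 7900 at 2 months and 7250 and 6732 at day 25, against 7491 and 8093.

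Among corepressors, relatives and targets of BCL6, 3 of 14 genes had an unadjusted p under 0.05 at day 25, all lower. They were Hdac4, a histone deacetylase that binds BCL6, at 226 and 315 in dKO against 477 and 440 in wild type, and the cell cycle genes Ccnd2 and Cdkn1b. The median of that list was 0.04. Bcl6b, the closest relative of Bcl6, read 59 and 62 in dKO at 2 months and 48 and 56 at day 25, against 47 and 50 in wild type. Prdm1, a gene that BCL6 represses in B cells, read 47 and 114 in dKO at 2 months and 64 and 158 at day 25, against 44 and 59 in wild type. At both ages the dKO replicates were further apart than the means of dKO and wild type.

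**Figure D4:**
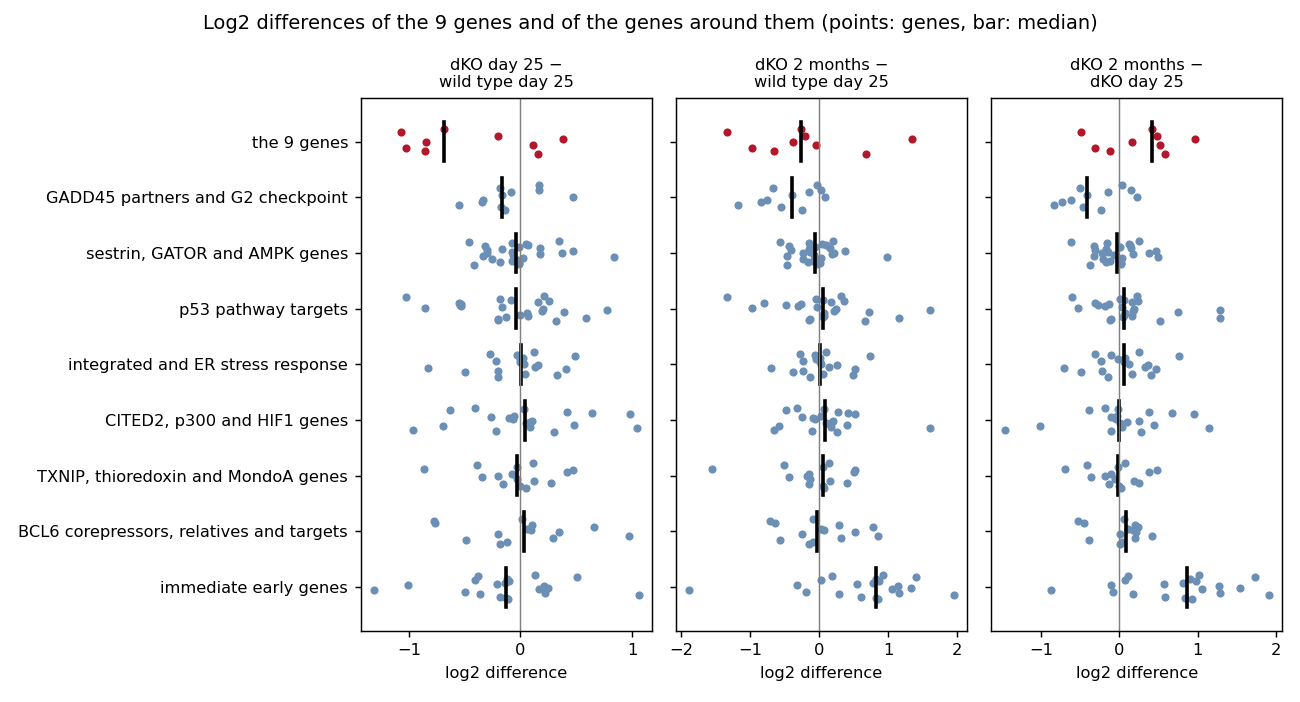
Log2 differences (horizontal axes) of the 9 genes, in red, and of the genes in 8 lists around them, in blue, in each of the 3 comparisons, with a point for each gene and a bar at the median. The median of the 9 genes is -0.69 at day 25, the medians of the lists lie between -0.16 and 0.04 there, and the immediate early genes are shifted to 0.82 and 0.87 in the comparisons of dKO at 2 months.

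Likeness of pattern was measured as the root mean square difference over the 6 arrays, each gene centred on its own mean log2 value, against 11067 genes with a mean intensity of at least 100. Closest to Gadd45a, at 0.14 each against a spread of 0.58 for Gadd45a itself, were the collagen gene Col27a1, the IGF1 receptor gene Igf1r and the transcription factor gene Bcl11a. Igf1r, for example, read 1123 and 1456 in dKO at 2 months and 1828 and 1616 at day 25, against 3517 and 3040 in wild type. Closest to Sesn1 were Rnf19b at 0.061 and Cmtm7 at 0.075, and closest to Gadd45g was Zyx, which encodes the focal adhesion protein zyxin, at 0.059. Zyx read 978 and 1662 in dKO at 2 months and 612 and 766 at day 25, against 611 and 444. Nearest to Cited2 were Prkag2 at 0.12 and Mex3b at 0.14, and nearest to Txnip was Tor1aip1 at 0.043. Among the 9 genes, the pairs most alike were Sesn3 with Bcl6 at 0.20, Cited2 with Bcl6 at 0.22, Sesn3 with Cited2 at 0.22 and Gadd45a with Sesn1 at 0.24. With 6 arrays and so many genes such closeness is given as a description.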

How the data were processed

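Biotin-labelled RNA of each sample was hybridised to an array of its own, per the labels' protocols. The authors deposited a linear intensity for each probe set, in whole numbers. The submitters' processing notes name affy and RMA, and versions, the rounding and the genome build are not given in the sources used here. RMA gives the probe intensities of all arrays 1 distribution before they are combined into probe sets, which would hide a shift shared by most genes.

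Values were transformed as log2(value + 1), so folds of dim genes are understated. From 45101 rows, 64 control probe sets were left out. The annotation gave 1 symbol for 34945 probe sets, several for 932 and none for 9160. A gene was represented by its probe set with the highest mean over the arrays. Group means were fitted on all 6 arrays together with limma 3.58.1 in R 4.3.3, leaving 3 residual degrees of freedom. The 3 contrasts were tested two-sided with Benjamini-Hochberg adjustment over 45037 probe sets at a threshold of 0.05.

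The 9 genes and the 16 lists, 8 of pathways and 8 of cell type markers with 234 of 247 entries measured, were chosen with earlier results of these data known. Named genes were the 9, fixed partners such as Map3k4, up to 3 per list and comparison of smallest p under 0.05 without overlap, and for each of the 9 the 3 genes of most alike pattern; not all are printed. Arrdc3 at day 25 was named after its values were seen. Promoter sequences and gene positions are from RefSeq tables of GRCm38.p6, where all 9 genes matched. Nothing in the labels ties replicates to separate animals, so the p-values reflect the spread between these arrays, which may be technical. The number of arrays limits the precision.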

Additional observations from a re-analysis of the deposited data

How the results depend on the processing

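The settings tried were a replicate block, a repeat of quantile normalization, centring of each array, a minimum mean intensity of 100, a pseudocount of 16, a trended robust prior, separate fits of the 4 arrays in a comparison, array weights, averaging over a gene's probe sets, dropping probe sets prone to cross-hybridization, and leaving out each array. A group left with 1 array borrows its spread from the other groups. No probe set passed after adjustment in the runs over probe sets, and no gene in the run that averaged a gene's probe sets, where the smallest adjusted p was 0.324 at day 25, 0.0906 for dKO at 2 months against wild type and 0.551 between the dKO ages. Of 432 values of single genes, 420 kept their direction, and all 12 that reversed did so with an array left out. The 270 values under the other settings kept theirs. The replicate block, the minimum intensity, the trended robust prior, the separate fits and the array weights returned the main differences unchanged. So did leaving out an array of the group outside a comparison. Such values could not reverse, so these counts overstate how far the directions were tested.

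With an array left out, the median of the 9 genes at day 25 ranged from -0.90 to -0.53 and the count at an unadjusted p under 0.05 from 1 to 4, and the count was 2 with a replicate block. For dKO at 2 months against wild type the median ranged from -0.56 to 0.029 and the count from 3 to 5. Between the dKO ages the median ranged from -0.062 to 0.56 and the count from 0 to 3. There the count was 0 with a replicate block and in the fit of the 4 arrays compared, where fewer samples estimate the spread.

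Values that reversed are given with their range over arrays left out. Gadd45b ranged from -0.53 to 0.75 at day 25, where it was also below 0 without wild-type replicate 2 (-0.011), from -0.80 to 0.044 at 2 months against wild type, and from -1.13 to 0.15 between the dKO ages. Sesn2 ranged from -0.15 to 0.056 at 2 months against wild type, where it was also above 0 without dKO 2-month replicate 2 (0.029), and from -0.032 to 0.35 between the dKO ages. Sesn3 ranged from -0.75 to 0.34 and Bcl6 from -0.56 to 0.033 at 2 months against wild type, both highest without dKO 2-month replicate 2. Between the dKO ages Sesn1 ranged from -0.30 to 0.065, Sesn3 from -0.062 to 1.03 and Cited2 from -0.086 to 0.91, all lowest without dKO 2-month replicate 1. The cause of these reversals was not tested.

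Whether the replicate numbers pair the arrays is not known. The correlation of same-numbered deviations was 0.06 between the dKO groups, -0.21 between dKO at 2 months and wild type and -0.16 at day 25. With 2 arrays a group these values cannot decide it. The replicate block is therefore given here alone.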
